A study of Homo sapiens with 22 samples.

Results

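The 9 genes described here code for 4 matrix metalloproteinases (MMP1, MMP2, MMP3 and MMP14), 3 tissue inhibitors of metalloproteinases (TIMP1, TIMP2 and TIMP3) and a pair of secreted ADAMTS proteinases (ADAMTS1 and ADAMTS5). They were chosen by symbol, with earlier results of these data known, and all 9 were found among the 60664 genes counted. mRNA was measured in IMR90 cells, a line of human fetal lung fibroblasts, starved of serum for 24 h in all groups. All cells had also received 10 nM siRNA for 72 h, either a non-targeting pool (control siRNA) or a pool against MSK2, the kinase encoded by RPS6KA4 that is activated downstream of the EGF receptor. They were then given PBS (4 libraries with each siRNA), 750 pM EGF for 30 min (4 and 4) or 750 pM EGF for 60 min (3 and 3). The labels give the PBS cells a time of 60 min, so both EGF times had the same PBS libraries as reference, and the comparisons are not independent of each other.

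Matrix metalloproteinases are zinc enzymes that are made as inactive proenzymes and, once activated, cut collagens and other proteins of the extracellular matrix. TIMPs bind the active site of these enzymes and block it, and the balance of both sets how fast a fibroblast remodels the matrix around it. ADAMTS1 and ADAMTS5 are related zinc proteinases that cut proteoglycans such as versican and aggrecan, and TIMP3 is their main inhibitor among the TIMPs. Several of these genes, MMP1 and MMP3 above all, are textbook targets of the AP-1 transcription factor, which growth factors such as EGF induce.

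Depth was 7893209 to 22244216 gene-assigned counts. Levels are given as counts per 1000000 assigned reads (CPM) after TMM scaling, and levels of different genes are compared only per kilobase of exon. Genes above 10 CPM in 2 or more of the 22 libraries were tested, which left 9770 genes and 7 of the 9 members. MMP3 and ADAMTS5 stayed below this limit. The test was the quasi-likelihood test of edgeR, with the threshold at P under 0.05 after Benjamini-Hochberg adjustment over all 9770 genes. No source states that the libraries of a group came from separate cultures, so P values measure the spread between these libraries, which may be technical. RPS6KA4 was at 10.9 to 26.5 CPM with control siRNA and at 1.71 to 3.72 CPM with MSK2 siRNA. All 12 fibroblast markers were above 10 CPM at the median, and the 6 leukocyte markers together never exceeded 1.26 CPM. The fourth PBS library with control siRNA stood apart, with the smallest depth and a mean correlation of 0.976 with the others of its group, against 0.983 or more for each other library. Values of MMP1, MMP2 and MMP14 without this library are given beside those with it.

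The members covered a wide span of levels. Per length, TIMP1, a secreted inhibitor of most metalloproteinases, was the highest member, with 749 to 1555 CPM per kb over the 22 libraries. MMP2 (gelatinase A), which degrades denatured collagen and basement membrane collagen, followed with 360.1 to 535 CPM per kb. TIMP3, the inhibitor that stays bound to the matrix, had 245 to 353 CPM per kb, and MMP1 (interstitial collagenase), which makes the first cut in fibrillar collagen, had 52.7 to 128 CPM per kb. These 4 genes did not overlap with each other in any library.

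ADAMTS1 came next, with 16.3 to 46.6 CPM per kb, and overlapped with MMP14, with 8.53 to 24.3 CPM per kb. MMP14 (MT1-MMP) is a membrane-anchored collagenase that also activates the MMP2 proenzyme on the cell surface. TIMP2, which helps MMP14 to capture that proenzyme as well as inhibiting it, had 10.3 to 20.5 CPM per kb, and its libraries overlapped with those of MMP14. MMP3 (stromelysin-1), which cuts matrix proteins and activates other proenzymes, had only 2.40 to 4.73 CPM per kb. ADAMTS5, the chief aggrecan-cutting enzyme of cartilage, was the lowest, with 0.391 to 1.06 CPM per kb, and neither of these last genes overlapped with the next higher one.

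**Figure D1:**
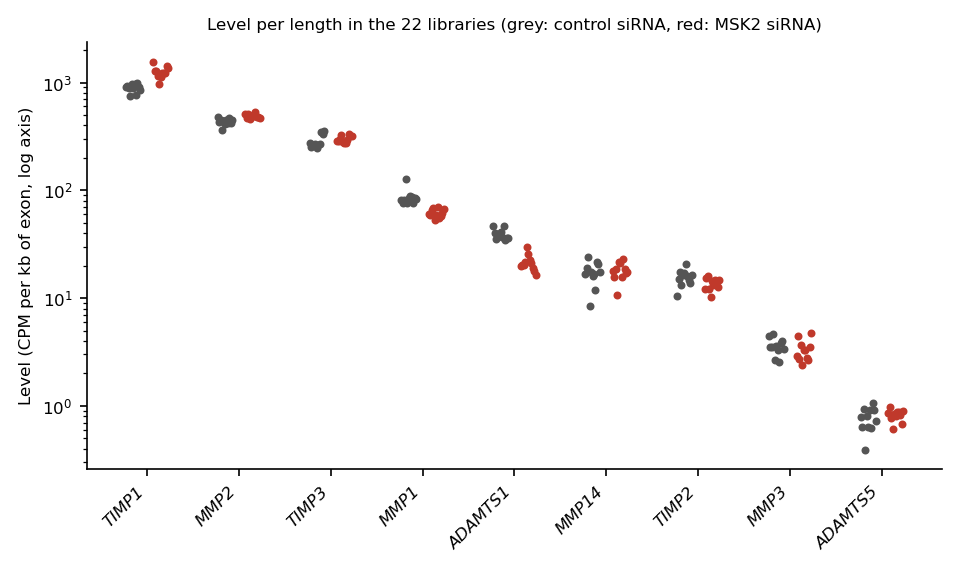
Level of the 9 genes per kilobase of merged exons in each of the 22 libraries (CPM per kb, log axis), with control siRNA in grey and MSK2 siRNA in red; each point is 1 library. TIMP1 lies highest (749 to 1555) and ADAMTS5 lowest (0.391 to 1.06), and the only neighbours that overlap are ADAMTS1 with MMP14 and MMP14 with TIMP2.

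MSK2 siRNA was compared with control siRNA within each treatment, to describe each gene with and without EGF. Whether a difference came from less MSK2 or from another effect of the siRNA pool was not tested. Because the members were chosen with earlier results known, the shares of all tested genes are a reference only. With PBS, 4 of the 7 tested members differed. TIMP1 and TIMP3 were higher with MSK2 siRNA, against 12.2% of all tested genes that were higher, and MMP1 and ADAMTS1 were lower, against 12.6% that were lower. After 30 min of EGF, TIMP1 and MMP2 were higher (14.9% of all genes were higher) and MMP1, ADAMTS1 and TIMP2 were lower (15.2% of all genes were lower). After 60 min, TIMP1 was higher (9.37% of all genes) and MMP1 and ADAMTS1 were lower (10.1% of all genes). ADAMTS1, MMP1 and TIMP1 thus passed the test with every treatment. Groups that did not overlap within a treatment are named below, also where the gene was not called. How many of all tested genes separated within a treatment was not counted. The median log2 difference of the 7 tested members was 0.00 with PBS, 0.10 after 30 min and -0.14 after 60 min, beside 0.00, 0.01 and 0.01 for all tested genes.

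**Figure D2:**
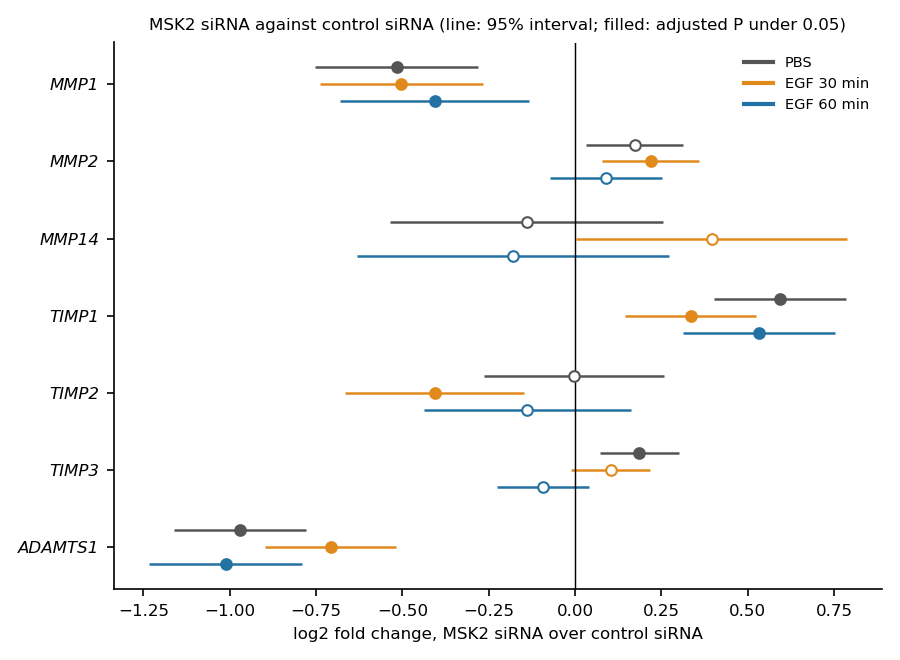
Log2 fold change of MSK2 siRNA over control siRNA for the 7 tested genes, with PBS (grey), EGF for 30 min (orange) and EGF for 60 min (blue); lines are 95% intervals from the quasi-likelihood fit, and filled points have an adjusted P under 0.05. ADAMTS1 and MMP1 lie left of 0 and TIMP1 right of 0 with all 3 treatments, whereas the other 4 genes passed with at most 1 treatment.

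ADAMTS1 (ENSG00000154734, chromosome 21 from 26835755 to 26845409 on the minus strand of GRCh38 in GENCODE v44) showed the largest difference among the members. With PBS it was at 340.3, 291, 256 and 289 CPM in the libraries with control siRNA and at 146, 148, 148 and 158 CPM in those with MSK2 siRNA. The lowest control library was far above the highest knockdown library, and the knockdown libraries were close to each other. The log2 fold change was -0.97 (SE 0.09, 95% interval -1.16 to -0.78, adjusted P = 5.65e-09), or 49.0% less mRNA. After 30 min of EGF, the control libraries had 277, 302, 269 and 340.4 CPM and the knockdown libraries 217, 189, 165 and 156 CPM. The groups again did not overlap, and the log2 difference was -0.71 (SE 0.09, adjusted P = 1.1e-06). After 60 min, the values were 254, 264 and 263 CPM against 139, 129.5 and 119 CPM. The log2 difference there was -1.01 (SE 0.11, adjusted P = 6.19e-08). Over all treatments, the 11 control libraries (254 to 340.4 CPM) lay above the 11 knockdown libraries (119 to 217 CPM). ADAMTS1 and MMP1 were the members that did so, against 5.32% of all tested genes, and no member had its knockdown libraries all above its control libraries, against 4.19% of all tested genes.

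MMP1 (ENSG00000196611, chromosome 11 from 102789401 to 102798160, minus strand) was lower with MSK2 siRNA by about the same amount with each treatment. With PBS, the control libraries had 222, 208, 221 and 350.4 CPM and the knockdown libraries 166, 163, 179.5 and 189 CPM. The fourth control library was far above its group, but the other control libraries were also above all of the knockdown libraries. The log2 fold change was -0.52 (SE 0.12, 95% interval -0.75 to -0.28, adjusted P = 0.00121), and without the fourth control library it was -0.32 (adjusted P = 0.00573). At 30 min of EGF, the values were 207, 233, 245 and 237 CPM with control siRNA and 144, 163, 192 and 152 CPM with MSK2 siRNA. These groups did not overlap, and the log2 difference was -0.50 (SE 0.12, adjusted P = 0.00144).

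After 60 min of EGF, MMP1 was at 209, 234 and 229.5 CPM with control siRNA and at 157, 168 and 183 CPM with MSK2 siRNA. Its log2 fold change was -0.41 (SE 0.13, adjusted P = 0.0302). It no longer passed when the second or the third control library (adjusted P = 0.098 and 0.0832) or the first or second knockdown library (0.108 and 0.0801) was left out. Exons of MMP1 share 223 bases with WTAPP1, a pseudogene on the opposite strand. That gene had 0 to 3 counts in each library, against 2005 to 4616 for MMP1. How reads in shared bases were assigned is not stated, so these counts do not show what the overlap did to MMP1. Exons of MMP2 (174 bases), MMP3 (32 bases) and TIMP2 (224 and 367 bases) also overlapped with exons of other genes.

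The remaining proteinases gave smaller or no differences between the siRNAs. MMP2 (ENSG00000087245, chromosome 16 from 55389700 to 55506691, plus strand) was at 2049, 1957, 2112 and 1984 CPM with control siRNA after 30 min of EGF and at 2259, 2358, 2291 and 2520 CPM with MSK2 siRNA. The groups did not overlap, and the log2 difference was 0.22 (SE 0.07, adjusted P = 0.0167). It no longer passed without the second control library (adjusted P = 0.0526) or the fourth knockdown library (0.0657). With PBS, MMP2 ranged from 1695 to 2250 CPM with control siRNA and from 2154 to 2384 CPM with MSK2 siRNA, so the groups overlapped. The log2 fold change was 0.17 (SE 0.07, adjusted P = 0.0676). With the replicate number as a block in the fit of all libraries, it was 0.18 (adjusted P = 0.0417), and MMP2 passed. With this block in the fit of the 8 PBS libraries it was 0.18 as well (adjusted P = 0.0374). MMP2 also passed without the first control library (0.23, adjusted P = 0.021) and without the fourth knockdown library (0.21, adjusted P = 0.0415). With library sizes only it passed as well (0.18, adjusted P = 0.0456). Without the fourth control library the log2 fold change was 0.10 (adjusted P = 0.256). After 60 min, MMP2 had a log2 fold change of 0.09 (95% interval -0.07 to 0.25) and was not called. The groups did not overlap there either, with 2004 to 2204 CPM with control siRNA and 2223 to 2267 CPM with MSK2 siRNA.

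MMP14 (ENSG00000157227, chromosome 14 from 22836560 to 22849041, plus strand) varied widely between the PBS libraries of a group. With PBS and control siRNA it was at 77.9, 87.3, 112 and 39.4 CPM, and with MSK2 siRNA at 82.4, 72.4, 86.0 and 49.7 CPM. The fourth library was the lowest with either siRNA. Its log2 fold changes with MSK2 siRNA were -0.14 (95% interval -0.53 to 0.25) with PBS, 0.40 (0.00 to 0.79) after 30 min and -0.18 (-0.63 to 0.27) after 60 min, and none passed the test. Without the fourth control library, the value with PBS was -0.35 (adjusted P = 0.0987). The call at 30 min depended on the fit. It passed when the fit held only the compared groups (0.39, adjusted P = 0.0182), with no filter on low counts (0.40, adjusted P = 0.000949) and with the replicate block (0.44, adjusted P = 0.0454).

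**Figure D3:**
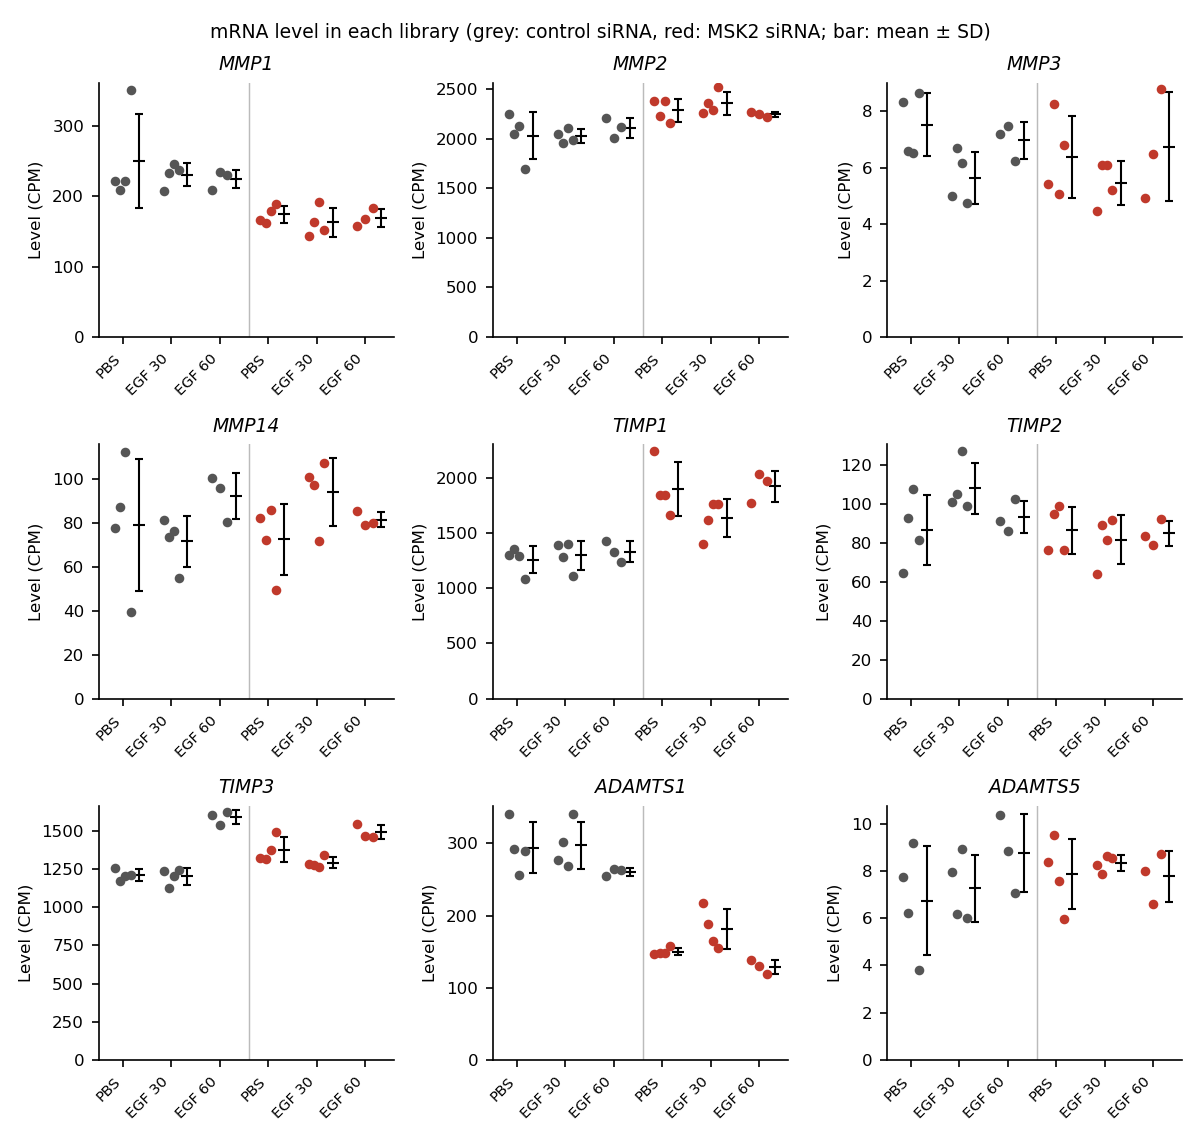
Level of the 9 genes in each library (CPM, linear axes from 0) by treatment, with control siRNA in grey and MSK2 siRNA in red; bars give the mean ± SD of the 3 or 4 libraries. ADAMTS1 (119 to 217 CPM against 254 to 340.4 CPM) and MMP1 (144 to 192 CPM against 207 to 350.4 CPM) separate by siRNA in all libraries, and TIMP3 is raised at 60 min of EGF with control siRNA.

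TIMP1 (ENSG00000102265, chromosome X from 47582408 to 47586789, plus strand) was the inhibitor with the largest difference. With PBS, the control libraries had 1304, 1356, 1298 and 1083 CPM and the knockdown libraries 2248, 1845, 1844 and 1664 CPM. All knockdown libraries were higher, and the log2 fold change was 0.59 (SE 0.09, 95% interval 0.40 to 0.78, adjusted P = 1.72e-05), or 50.8% more mRNA. At 30 min of EGF, the values were 1393, 1286, 1402 and 1117 CPM against 1402, 1620, 1765 and 1766 CPM. The lowest knockdown library there was level with the highest control library, and the log2 fold change was 0.33 (SE 0.09, adjusted P = 0.00719). After 60 min, the values were 1434, 1326 and 1240 CPM against 1771, 2041 and 1972 CPM, or 0.53 on the log2 scale (SE 0.11, adjusted P = 0.00056). TIMP1 lies within the span of SYN1 on the other strand, with no shared exon bases, and SYN1 had 8 to 26 counts in each library.

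TIMP3 (ENSG00000100234, chromosome 22 from 32801705 to 32863041, plus strand) was at 1257, 1168, 1204 and 1208 CPM with control siRNA and PBS and at 1322, 1311, 1376 and 1490 CPM with MSK2 siRNA. The groups did not overlap, and the log2 fold change was 0.19 (SE 0.06, adjusted P = 0.0143). This call was lost without the fourth knockdown library (adjusted P = 0.0525), when the fit held only the 8 PBS libraries (0.102) and with no filter on low counts (0.201). With the replicate block it passed, in the fit of all libraries (adjusted P = 0.00564) and in that of the 8 PBS libraries (0.0302). After 30 and 60 min of EGF, the log2 fold changes were 0.10 (95% interval -0.01 to 0.22) and -0.09 (-0.22 to 0.04), and neither was called. The groups at 30 min did not overlap, with 1124 to 1242 CPM with control siRNA and 1261 to 1340 CPM with MSK2 siRNA.

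TIMP2 (ENSG00000035862, chromosome 17 from 78852977 to 78925387, minus strand) differed after 30 min of EGF, where it was at 101, 105, 127.5 and 99.1 CPM with control siRNA and at 64.1, 89.4, 81.5 and 91.8 CPM with MSK2 siRNA. The groups did not overlap, and the log2 fold change was -0.41 (SE 0.13, adjusted P = 0.0157). It was lost without the third control library (adjusted P = 0.0792) or the first knockdown library (0.0825). With PBS the means were 86.7 ± 18.2 CPM and 86.5 ± 12.0 CPM (SD, n = 4 each), and the 95% interval of the log2 fold change was -0.26 to 0.26. After 60 min of EGF the log2 fold change was -0.14 (95% interval -0.44 to 0.16).

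TIMP1 and TIMP3 were the inhibitors that were both higher with MSK2 siRNA and PBS, and the 250 bases before their RefSeq start sites on GRCh38.p14 are shown for that reason. TIMP1 is at chrX:47582186-47582435 and TIMP3 at chr22:32801455-32801704, both on the plus strand and 5′ to 3′, with each match to the GC box GGGCGG on either strand in capitals:
TIMP1: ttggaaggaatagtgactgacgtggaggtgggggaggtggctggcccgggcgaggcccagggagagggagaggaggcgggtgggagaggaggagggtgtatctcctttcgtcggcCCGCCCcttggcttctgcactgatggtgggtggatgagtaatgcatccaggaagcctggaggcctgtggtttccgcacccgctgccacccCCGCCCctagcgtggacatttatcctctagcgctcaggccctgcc
TIMP3: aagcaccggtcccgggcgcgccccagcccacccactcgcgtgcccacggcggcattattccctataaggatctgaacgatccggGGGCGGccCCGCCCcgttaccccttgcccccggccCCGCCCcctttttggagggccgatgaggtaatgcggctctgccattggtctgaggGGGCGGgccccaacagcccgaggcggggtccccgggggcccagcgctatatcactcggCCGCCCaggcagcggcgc
The TIMP3 stretch held 5 GC boxes and the TIMP1 stretch 2. The same window of MMP14, the remaining member with a RefSeq promoter here, held 1, and 42.6% of 35116 promoters held at least 1. The share of G and C letters was 72.4% for TIMP3, 64.8% for TIMP1 and 56.8% for MMP14, beside a median of 58% for all promoters. How many promoters held as many GC boxes as TIMP3 was not counted. The GC box was searched after these sequences had been read. Searches on both strands for the AP-1 element TGANTCA (in 6.57% of all promoters), the CRE TGACGTCA (1.65%) and the TATA box TATAAA (10.7%) found no match in any of the 3 windows. Variants of these elements that differ in a letter were not searched. The printed TIMP1 window holds such a variant, tgagtaa, which differs from TGANTCA in a single letter. The windows may hold others, and the share of all promoters with such variants was not counted. A match is a description of the letters only.

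EGF itself was compared with PBS for each siRNA, to ask whether the growth factor moved these genes within the hour. TIMP3 was the member that did so. It rose after 60 min with control siRNA, the only call among the 7 tested members in that comparison, where 2.50% of all tested genes were higher. It was at 1605, 1534 and 1624 CPM, above the 1168 to 1257 CPM of the PBS libraries. The log2 fold change was 0.39 (SE 0.06, 95% interval 0.27 to 0.51, adjusted P = 4.93e-05), or 31.2% more mRNA. After 30 min it was at 1237, 1124, 1202 and 1242 CPM, which overlapped with PBS, and the log2 fold change was -0.01 (95% interval -0.12 to 0.11).

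With MSK2 siRNA, TIMP3 was at 1540, 1467 and 1458 CPM after 60 min and at 1311 to 1490 CPM with PBS, so the groups overlapped. The log2 fold change was 0.11 (SE 0.06, 95% interval -0.01 to 0.24, adjusted P = 0.67). The difference between the responses of the siRNAs was -0.28 on the log2 scale (SE 0.09, 95% interval -0.45 to -0.10) with an unadjusted P of 0.00302 in edgeR. It did not pass over all genes (adjusted P = 1.00, rounded), and 0% of all tested genes passed this test at 60 min. As means ± SD, TIMP3 with control siRNA was at 1209 ± 36.5 CPM with PBS (n = 4) and 1588 ± 47.3 CPM after 60 min (n = 3), and with MSK2 siRNA at 1375 ± 82.2 CPM (n = 4) and 1489 ± 44.98 CPM (n = 3).

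No other member passed in an EGF comparison in edgeR with the filter on low counts. With no filter, MMP14 was called higher after 30 min with MSK2 siRNA (log2 fold change 0.42, adjusted P = 0.00617), where the value with the filter was 0.38 (adjusted P = 0.516). After 30 min with control siRNA, 0 of the 7 members were called (0.614% of all genes), TIMP2 had an unadjusted P under 0.05 (log2 fold change 0.32, 95% interval 0.06 to 0.58), and the exact test of edgeR and DESeq2 also called 0. After 30 min with MSK2 siRNA, 0 were called (0.778% of all genes), and TIMP1 and ADAMTS1 had an unadjusted P under 0.05 with log2 fold changes of -0.21 and 0.28. After 60 min with MSK2 siRNA, 0 were called (2.16% of all genes), and ADAMTS1 had an unadjusted P under 0.05 with a log2 fold change of -0.22. The exact test of edgeR and DESeq2 called 0 members in both of these comparisons too.

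ADAMTS1 with MSK2 siRNA was at 146 to 158 CPM with PBS, 156 to 217 CPM after 30 min and 119 to 139 CPM after 60 min. Its group means were 150 ± 5.16 CPM (SD, n = 4), 182 ± 27.4 CPM (SD, n = 4) and 129 ± 9.91 CPM (SD, n = 3). The 60 min libraries were all below those with PBS, but edgeR did not call this comparison (adjusted P = 0.535). The share of all tested genes that separated in this way was not counted. MMP1, the collagenase best known as an AP-1 target, had log2 fold changes between -0.15 and -0.04 in the 4 EGF comparisons, with 95% intervals from -0.41 at the lowest to 0.21 at the highest. Without the fourth PBS library with control siRNA, its values with that siRNA were 0.08 after 30 min and 0.04 after 60 min. MMP2 had log2 fold changes between -0.03 and 0.05.

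**Figure D4:**
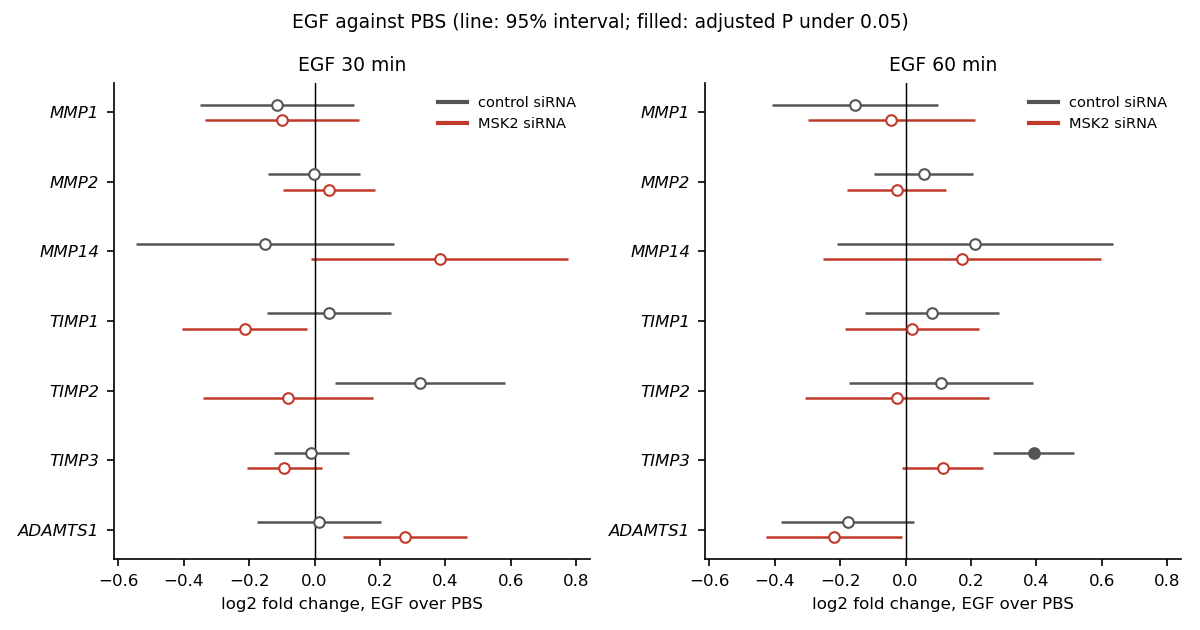
Log2 fold change of EGF over PBS for the 7 tested genes after 30 min (left) and 60 min (right), with control siRNA in grey and MSK2 siRNA in red; lines are 95% intervals and the filled point has an adjusted P under 0.05. TIMP3 at 60 min with control siRNA (0.39) is the only filled point, and its value with MSK2 siRNA is 0.11.

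No tested member passed the edgeR test for a difference between the EGF responses of the siRNAs. At 30 min, 0 of 7 members and 0% of all tested genes passed, DESeq2 also called 0 members, and TIMP2 had an unadjusted P under 0.05 with a difference of -0.40 on the log2 scale (95% interval -0.77 to -0.03, adjusted P = 0.713). MMP14 had a difference of 0.54 (95% interval -0.02 to 1.09, adjusted P = 0.714). With no filter on low counts MMP14 passed (0.56, adjusted P = 0.0389), and without the fourth PBS library with control siRNA its difference was 0.74 (adjusted P = 0.123). At 60 min, 0 of 7 members passed, DESeq2 again called 0, and TIMP3, as given above, had an unadjusted P under 0.05. A P above the threshold does not show that the responses were alike.

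MMP3 and ADAMTS5 were too low for the test across genes, and each was compared by 2-sided exact permutation tests of log2(CPM + 0.5). MMP3 (ENSG00000149968, chromosome 11 from 102835801 to 102843609, minus strand) had 61 to 146 counts and 4.45 to 8.78 CPM in the 22 libraries. Its mean was 7.52 ± 1.12 CPM (SD, n = 4) with PBS and control siRNA and 5.64 ± 0.926 CPM (SD, n = 4) after 30 min of EGF, with libraries that overlapped (exact permutation P = 0.0857). ADAMTS5 (ENSG00000154736, chromosome 21 from 26917922 to 26967088, minus strand) had 30 to 154 counts and 3.82 to 10.4 CPM, the lowest in the fourth PBS library with control siRNA. Its group means lay between 6.74 and 8.75 CPM. In 14 exact permutation tests over 7 comparisons, the smallest P was 0.0857 and the groups overlapped in each. The smallest P that 4 against 4 libraries allow is 0.029, and 3 against 3 cannot go below 0.1.

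The balance of proteinase and inhibitor mRNA was described as the summed CPM per kb of MMP1, MMP2, MMP3 and MMP14 over that of TIMP1, TIMP2 and TIMP3. With PBS, this ratio was 0.490, 0.442, 0.476 and 0.489 with control siRNA and 0.317, 0.350, 0.373 and 0.364 with MSK2 siRNA, without overlap. After 30 min of EGF, it was 0.426, 0.452, 0.446 and 0.494 with control siRNA and 0.442, 0.414, 0.382 and 0.404 with MSK2 siRNA. These groups overlapped. After 60 min, it was 0.421, 0.424 and 0.452 against 0.356, 0.321 and 0.331, without overlap. The mean log2 differences were -0.44, -0.15 and -0.37, beside SDs between libraries of 0.09, 0.09 and 0.07.

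TIMP1 and MMP2 make up most of this ratio, and no test is given because the genes were chosen with results of these data known. Without TIMP1, the log2 differences were -0.11 with PBS, 0.05 after 30 min and 0.11 after 60 min, so the direction at both EGF times turned. Without MMP2 they were -0.93, -0.59 and -0.73. Within MSK2 siRNA, the ratio was 0.351 ± 0.0248 (SD, n = 4) with PBS, 0.411 ± 0.0251 (SD, n = 4) after 30 min and 0.336 ± 0.0183 (SD, n = 3) after 60 min.

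**Figure D5:**
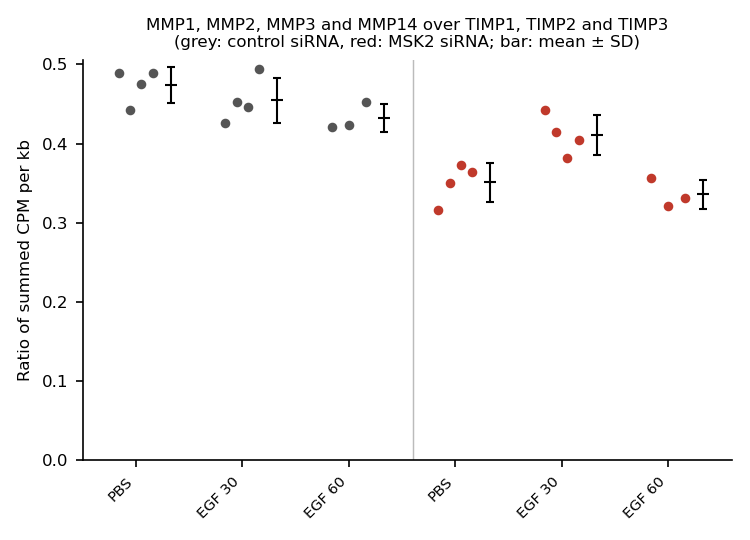
Ratio of the summed level (CPM per kb) of MMP1, MMP2, MMP3 and MMP14 to that of TIMP1, TIMP2 and TIMP3 in each library, by treatment, with control siRNA in grey and MSK2 siRNA in red; bars give the mean ± SD. The control libraries lie between 0.421 and 0.494 and the knockdown libraries between 0.317 and 0.442, and the siRNAs overlap only after 30 min of EGF.

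Across the 22 libraries, which share their siRNA and treatment groups, ADAMTS1 and TIMP1 ran opposite to each other (Pearson r = -0.93 of log2 CPM), as did MMP1 and MMP2 (r = -0.86). The correlations of TIMP2 and TIMP3 with the other tested members lay between -0.43 and 0.32. The genes most like each member in this sense were PCDH18 (r = 0.959), SCD and ZNF71 for ADAMTS1, RBM3 (r = 0.951), DCUN1D5 and CCT5 for MMP1, and TMEM179B (r = 0.944), CST3 and YPEL3 for TIMP1. For MMP2 they were FURIN (r = 0.95), LTBP3 and COL1A1, and for MMP14 ZDHHC8 (r = 0.958), SYMPK and TTYH3. TIMP3 was most like WEE1 (r = 0.882), FAM53C and TSC22D3, and TIMP2 most like PCBP2 (r = 0.821), SLC25A3 and YWHAB.

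The other genes of pericellular proteolysis were taken as 5 lists of 76 genes, of which 39 were tested. With MSK2 siRNA, 10 were higher and 8 lower with PBS, 13 higher and 7 lower after 30 min of EGF, and 8 higher and 8 lower after 60 min. Of all tested genes, 12.2% were higher and 12.6% lower with PBS, 14.9% and 15.2% after 30 min, and 9.37% and 10.1% after 60 min. The median log2 fold changes of the 39 genes were 0.05, 0.08 and 0.03. SERPINE2 (protease nexin-1), an inhibitor of thrombin and urokinase, showed the smallest P in each comparison. It was at 644 ± 30.7 CPM against 331 ± 30.5 CPM with PBS (SD, n = 4 each, log2 fold change 0.96, adjusted P = 5.69e-11), and had log2 fold changes of 0.96 and 1.01 after 30 and 60 min. TFPI2, an inhibitor of plasmin and other serine proteinases, was higher by 1.05, 0.89 and 1.07 on the log2 scale. ADAMTS15, another proteoglycan-cutting ADAMTS, was at 31.8 ± 3.52 CPM against 10.7 ± 0.479 CPM after 30 min (SD, n = 4 each, log2 fold change 1.57, adjusted P = 3.39e-08). THBS1 (thrombospondin 1), a secreted matrix glycoprotein, was lower with PBS, at 885 ± 62.6 CPM against 1338 ± 119 CPM (SD, n = 4 each, log2 fold change -0.60, adjusted P = 2.06e-06).

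Among the other metalloproteinases, 4 of 19 were tested, and MMP17, a membrane-anchored one, was the gene that differed, lower with MSK2 siRNA, with log2 fold changes of -0.59 after 30 min and -0.67 after 60 min. Of the other ADAMTS and ADAMTS-like genes, 8 of 22 were tested. With PBS, ADAMTS15 (1.11) and ADAMTSL1 (0.42) were higher and ADAMTS6 (-1.19) was lower, on the log2 scale. After 30 min the same was found for ADAMTS15, ADAMTSL1 (0.78) and ADAMTS6 (-0.88), and ADAMTS2, the procollagen N-proteinase, was also higher (0.55). After 60 min ADAMTS15 (1.16) and ADAMTSL1 (0.71) were higher. Of 5 tested proteoglycans, substrates of these enzymes, FMOD and LUM were higher and VCAN and DCN lower with all 3 treatments. VCAN (versican), a classic substrate of ADAMTS1, had log2 fold changes of -0.55, -0.45 and -0.54. MMP17, ADAMTSL1, ADAMTS6, ADAMTS2 and the proteoglycans were named after their values had been seen.

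Of the membrane ADAM proteins, several of which shed proteins from the cell surface, 7 of 11 were tested. ADAM19 was higher (0.66, 0.76 and 0.64 on the log2 scale) and ADAM23, which lacks proteinase activity, lower (-0.47, -0.30 and -0.52) with each treatment. ADAM12 was higher with PBS (0.56) and after 30 min (0.57). ADAM10, the main sheddase of Notch, was lower with PBS (-0.26) and after 60 min (-0.32). Of the list of further inhibitors, activators and clearance receptors, RECK, a membrane-anchored inhibitor of MMP2 and MMP14, was lower, with log2 fold changes of -0.53, -0.41 and -0.57. FURIN, which cuts the propeptide of MMP14, was higher after 30 min (0.36). ADAM19, ADAM23, ADAM12, ADAM10, RECK and FURIN were likewise named after their values had been seen.

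The AP-1 subunits responded to EGF in the same libraries. Of 6 tested, 4 rose after 30 min with either siRNA, and after 60 min 5 rose with control siRNA and 6 with MSK2 siRNA. Of all tested genes, 0.614% and 0.778% were called after 30 min with control and MSK2 siRNA, and 2.50% were higher with control siRNA and 2.16% called with MSK2 siRNA after 60 min. FOS, with control siRNA, was at 11.3 ± 1.39 CPM with PBS and at 182 ± 19.1 CPM after 30 min (SD, n = 4 each), a log2 fold change of 4.01 (adjusted P = 6.73e-19). FOSL1, with MSK2 siRNA, was at 71.4 ± 8.21 CPM with PBS (SD, n = 4) and at 234 ± 0.985 CPM after 60 min (SD, n = 3). JUNB, which rose with both siRNAs, was lower with MSK2 siRNA with every treatment, with log2 fold changes of -0.55 with PBS and -0.39 after 30 min. After 60 min of EGF it was at 209 ± 25.4 CPM against 347 ± 26.9 CPM (SD, n = 3 each, log2 fold change -0.73, adjusted P = 1.29e-05). PLAU and PLAUR, urokinase and its receptor, had log2 fold changes of 0.64 and 0.50 after 60 min with control siRNA, and were named after their values had been seen.

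Cell type markers and the mitochondrial share of the counts moved with the siRNA as well. The summed level of the 12 fibroblast markers was 45637 to 63146 CPM with PBS and control siRNA and 63014 to 67577 CPM with MSK2 siRNA, with 49759 to 51804 against 63403 to 74791 CPM after 30 min and 53476 to 57653 against 62089 to 67107 CPM after 60 min. This sum rests mostly on COL1A2, COL1A1 and FN1. Single markers went both ways. With PBS, 2 of the 12 were higher and 5 lower, beside 12.2% and 12.6% of all tested genes. After 30 min, 4 were higher and 4 lower (14.9% and 15.2% of all tested genes). After 60 min, 2 were higher and 4 lower (9.37% and 10.1% of all tested genes). PDGFRA, for example, had log2 fold changes of -0.55, -0.46 and -0.56. The mitochondrial share of the counts was 1.45 to 1.95% with control siRNA and 2.04 to 2.86% with MSK2 siRNA with PBS, 1.46 to 2.07% and 1.54 to 2.07% after 30 min, and 1.16 to 1.59% and 1.82 to 1.95% after 60 min. It overlapped between the siRNAs at 30 min alone. The summed level of 6 endothelial markers was 50.7 to 65.4 CPM in the control libraries and 16.02 to 27.1 CPM in the knockdown libraries. TEK made up most of it, with a log2 fold change of -1.78 with PBS, whereas CDH5 was listed at a median of 0 and PECAM1 at no more than 1.57 CPM in any library. The summed level of 8 epithelial markers was 6.67 to 17.5 CPM. The part of these shifts in the differences of the 9 members was not tested. In such bulk libraries, fewer cells that express a gene and less mRNA per cell cannot be told apart.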

How the data were processed

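Counts per gene were analysed for 22 libraries of 6 groups, with groups taken from the labels. The authors prepared SMART-Seq v4 cDNA and Nextera XT libraries, a kit without strand information. Alignment to hg38 was by STAR 2.7.9a and counting by HTSeq 0.13.5, and the deposited values are raw counts. The annotation release and strand setting are not given in the sources used here. Summary lines naming no gene (18.3 to 22.4% of each file) were left out.

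Genes above 10 CPM in at least 2 libraries were fitted in edgeR 4.0.16 (R 4.3.3) as 6 group means with TMM scaling and tested by quasi-likelihood. Alternatives were edgeR's exact test, DESeq2 1.42.0, its size factors, library sizes only, other filters, only the compared groups, the replicate number as a block, and each library left out. The fit was tested on simulated counts. Exon lengths and coordinates are those of GENCODE v44. The deviations of same-numbered PBS libraries correlated by 0.143 to 0.50 between siRNAs, so these were also tested as pairs. This pairing comes from the data alone.

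Members, lists and tests were chosen with earlier results of these data known, and a planned test of the proteinase to inhibitor ratio is therefore not given. Named genes were the members, the 3 listed genes with the smallest P among those called in each comparison, and the 3 genes most correlated with each tested member. Of these, 1 gene is not reported here. RefSeq promoters were used for 3 members.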

Additional observations from a re-analysis of the deposited data

Results flagged for a closer look

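MMP1 stood out in 1 library. In the fourth PBS library with control siRNA it was at 350.4 CPM, against a median of 221 CPM in the other 3 libraries of that group, a gap of 0.903 of the range of the group. This was the 1 flag among 40 groups of 4 libraries looked at for the 9 genes and the proteinase to inhibitor ratio, and chance flags about 1 in 20 such groups. The same library had the lowest depth (7893209 counts) and the lowest MMP2 (1695 CPM), MMP14 (39.4 CPM), TIMP1 (1083 CPM) and ADAMTS5 (3.82 CPM) of its group. The part of depth in these values was not tested.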

How the results depend on the processing

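Of the results of single members under the alternatives, 1050 kept their side of the threshold, 11 calls were lost and 10 were gained. Members that were not called in either fit count among the 1050. The 11 losses all fell on calls between the siRNAs, which were 4 with PBS, 5 after 30 min and 3 after 60 min. No called member turned its direction. ADAMTS1 and TIMP1 with MSK2 siRNA and TIMP3 after 60 min of EGF with control siRNA passed under every alternative run. The exact test of edgeR and DESeq2 gave the same number of members as the quasi-likelihood test in each comparison they were run in. With no filter on low counts, 1 member (MMP14) was called after 30 min of EGF with MSK2 siRNA, and 1 (MMP14) in the difference between the responses at 30 min, in place of 0 each. The replicate block added MMP2 with PBS (log2 fold change 0.18, adjusted P = 0.0417) and MMP14 after 30 min (0.44, adjusted P = 0.0454) between the siRNAs and changed no other call of a member. Every same-numbered pair had a correlation over 0.1 only between the siRNAs with PBS. In other comparisons some pairs did, such as 3 of 4 between PBS and 30 min of EGF with control siRNA. With MSK2 siRNA, all pairs between PBS and EGF were negative (-0.349 to -0.0701). Between the siRNAs at 30 min, where the block added MMP14, the pairs ran from -0.181 to 0.0823.

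The log2 difference of the proteinase to inhibitor ratio between the siRNAs with PBS was -0.33 without MMP1, -0.93 without MMP2, -0.11 without TIMP1 and -0.29 when not divided by length. After 30 min of EGF it was -0.054, -0.59, 0.054 and -0.039 in the same order. After 60 min it was -0.73 without MMP2, 0.11 without TIMP1, -0.51 without TIMP3 and -0.18 when not divided by length. Leaving out 1 library moved it by less than the spread between libraries. MMP3 and ADAMTS5 rest on 30 to 154 counts per library, and small changes of these genes were not detectable at this depth.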
